A study of Mus musculus with 13 samples.

Results

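The genes described here are 10 members of interleukin-6 (IL-6) family, interleukin-33 (IL-33) and STAT3 signalling, out of 32544 gene symbols measured in mouse lung. They are the ligands Il6, Il11 and Lif, the receptor subunits Il6ra, Il6st and Osmr, the transcription factor Stat3 with its feedback inhibitor Socs3, and Il33 with its receptor Il1rl1. Each was chosen by name as a component of the pathway, and each symbol matched exactly 1 row of the count table. RNA came from perfused whole lungs of wild-type (WT) male C57BL/6J mice, an inbred laboratory strain, bought at 7 weeks of age. The normoxia group (n = 7) was kept at 21% oxygen and the hyperoxia group (n = 6) at 80% oxygen, both for 5 days, and the labels name no other treatment or allele in either group. The RNA was read by Quant-seq, which sequences the 3′ ends of polyadenylated transcripts.

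Nearly all cytokines of the IL-6 family share the signalling subunit gp130, which is encoded by Il6st, and differ in the subunit that pairs with it. IL-6 and IL-11 bind their own receptors, LIF binds the LIF receptor, and oncostatin M signals through the subunit encoded by Osmr. The assembled receptors activate JAK kinases, which phosphorylate STAT3. STAT3 enters the nucleus and induces acute-phase genes together with Socs3, whose product binds gp130 and the JAKs and shuts the signal down. IL-33 belongs to the IL-1 family instead. It is stored in the nuclei of barrier cells, in mouse lung mainly alveolar type 2 cells, is released on injury, and acts through the receptor ST2 (Il1rl1) on mast cells, group 2 innate lymphoid cells and regulatory T cells.

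Levels are given in CPM, a gene's counts set on a common library total after TMM scaling, which corrects that total for composition, and n is 7 for normoxia and 6 for hyperoxia throughout. The libraries held between 1607111 and 4540288 counts, so that 3 counts, the limit that a count of 0 allows, stood for 0.656 to 1.84 CPM. One library, hyperoxia replicate 1, stood apart from all others, with a mean correlation of 0.779 over log2 CPM against 0.886 to 0.919 in the other hyperoxic libraries. The changes of the 10 genes are given with and without it. Library names carry the letters B to M in 5 normoxic and 3 hyperoxic libraries and O to S in 2 normoxic and 3 hyperoxic libraries. What the letters stand for was not stated. For each of the 10 genes the difference in mean log2 CPM within each letter set is given beside the pooled change, for B to M also without hyperoxia replicate 1, a choice made after seeing the data. Sftpc, the surfactant gene that marks lung epithelium, was counted in every library. Its levels were 5066 to 13580 CPM in normoxia and 32.7 to 2915 CPM in hyperoxia.

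Of the 10 genes, 9 had enough counts to be tested. Il11, Lif and Stat3 were higher and Il33 was lower in hyperoxia in edgeR's quasi-likelihood test, in which a gene was called when its p, adjusted over 12496 genes after Benjamini and Hochberg, was under 0.05. Thus 4 of 9 were called. Here and below, SE is the standard error of a log2 fold change. Over all genes tested 22.6% were called, 11.8% higher and 10.8% lower. The median log2 fold change of the 9 genes was 0.65, against −0.03 over all genes tested. Without hyperoxia replicate 1, 6 of 9 were called, with Socs3 and Osmr added, and 28.5% of all genes. Among the 10 genes the levels of the groups did not overlap in Il33 alone, as in 10.8% of all genes tested. Without hyperoxia replicate 1 this held for 4 of the 10 genes, Lif, Osmr, Socs3 and Il33, and for 15.4% of all genes tested.

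**Figure D1:**
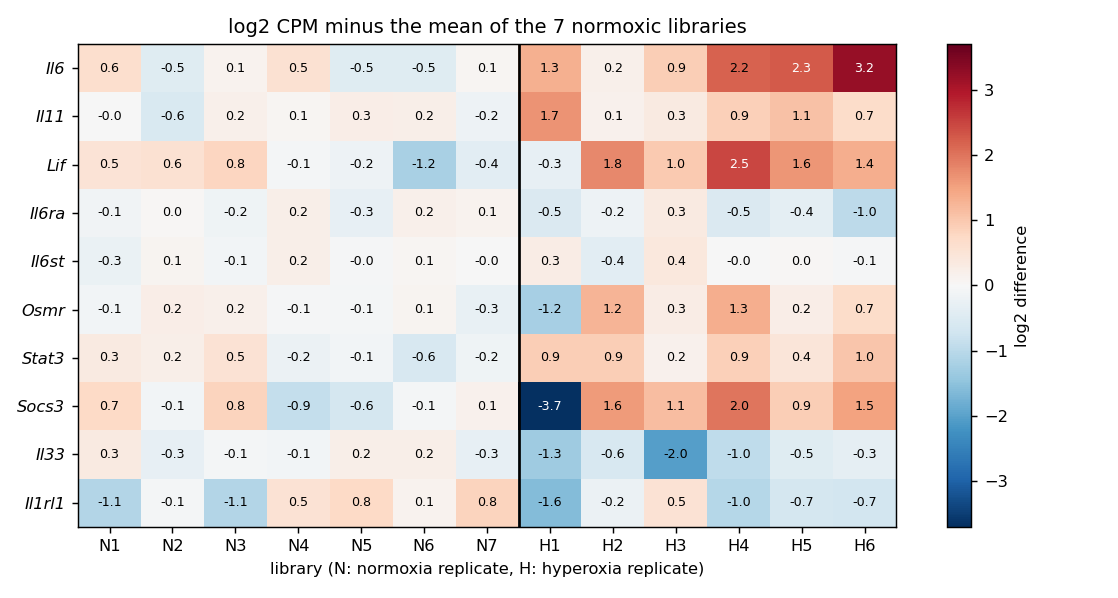
Each cell gives, for 1 gene (rows) in 1 library (columns, N for normoxia and H for hyperoxia, numbered by replicate), log2 CPM minus the mean of the 7 normoxic libraries, with red above and blue below that mean. Il6, Il11, Lif, Osmr, Stat3 and Socs3 are red in most hyperoxic columns and Il33 is blue in all 6, whereas Socs3, Osmr and Lif are blue in H1, the library that stands apart.

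Among the ligands, Il6, the founding cytokine of the family and an inducer of the acute-phase response, was barely detected in normoxia. It lies on the plus strand of chromosome 5 (GRCm38, 30013114 to 30019981). The 7 normoxic libraries held 2, 0, 1, 2, 0, 0 and 1 counts of Il6 and the 6 hyperoxic libraries 3, 1, 3, 13, 12 and 36, in order of replicate. In CPM these were at most 0.747 in normoxia, with a median of 0.297, and ran from 0.378 to 7.87 in hyperoxia, with a median of 2.55. Thus 5 of 6 hyperoxic libraries lay above every normoxic library, and the 3 highest were those named O to S. As Il6 was too low for the edgeR filter it was compared on its own, and mean log2 CPM was 1.68 higher in hyperoxia (two-sided exact permutation test over all 1716 arrangements, p = 0.00291, where the smallest p possible is 0.000583). When hyperoxia replicate 1 was left out the Il6 difference in mean log2 CPM was 1.75 (exact permutation p = 0.00505). All normoxic libraries were under 3 counts, so the size of the fold change is uncertain. The hyperoxic mean of 3.03 CPM was 2.74-fold the mean level that 3 counts per normoxic library would stand for, 1.10 CPM. This is not a lower bound, since libraries with 1 or 2 counts allow more than 3. Only 3 hyperoxic libraries held more than 3 counts. The hyperoxic mean was 1.01 CPM within B to M and 5.04 CPM within O to S. With edgeR and no filter the log2 fold change was 3.26 (SE 0.73, adjusted p = 0.00491), a value that depends on the prior count. Within B to M the groups differed by 0.73 (0.47 without hyperoxia replicate 1) in mean log2 CPM, and within O to S by 2.75.

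Il11 and Lif were both called higher in hyperoxia. Il11, a cytokine of fibroblasts and epithelium that is known for its part in lung fibrosis, lies on the minus strand of chromosome 7 (4772373 to 4782859). Its lowest, median and highest levels were 6.64, 10.8 and 12.3 CPM in normoxia and 11.3, 18.0 and 33.8 CPM in hyperoxia. The highest hyperoxic value belonged to hyperoxia replicate 1, and 5 of the 6 exceeded all normoxic values. The mean of Il11 rose 1.86-fold, 10.4 ± 2.02 CPM (SD, n = 7) in normoxia becoming 19.4 ± 8.11 CPM (SD, n = 6) in hyperoxia (log2 fold change 0.89, SE 0.25, edgeR adjusted p = 0.0188). When that library was left out the log2 fold change was 0.69 (edgeR adjusted p = 0.0251). Mean log2 CPM differed by 0.72 within the libraries B to M, by 0.24 within them when hyperoxia replicate 1 was left out, and by 0.86 within O to S.

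Lif encodes leukemia inhibitory factor, which protects epithelium in injured lung, and lies on the plus strand of chromosome 11 (4257557 to 4272514). Its lowest, median and highest levels were 0.558, 2.02 and 4.25 CPM in normoxia and 1.61, 7.34 and 15.1 CPM in hyperoxia. Only hyperoxia replicate 1 fell within the normoxic range. Lif rose 3.15-fold, from 2.43 ± 1.31 CPM to 7.55 ± 4.54 CPM (log2 fold change 1.66, SE 0.46, edgeR adjusted p = 0.0156), and without hyperoxia replicate 1 the log2 fold change was 1.86 (SE 0.39, edgeR adjusted p = 0.00212). The differences in mean log2 CPM were 0.49 within B to M (1.05 without hyperoxia replicate 1) and 2.62 within O to S. In a fit with an interaction of condition and letter set, a test of whether the change differs between the sets, the change of Lif was greater in O to S by 2.44 on the log2 scale (edgeR adjusted p = 0.538). With edgeR this interaction was called in 0 of the 12496 genes, while 9.27% had an unadjusted p under 0.05.

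**Figure D2:**
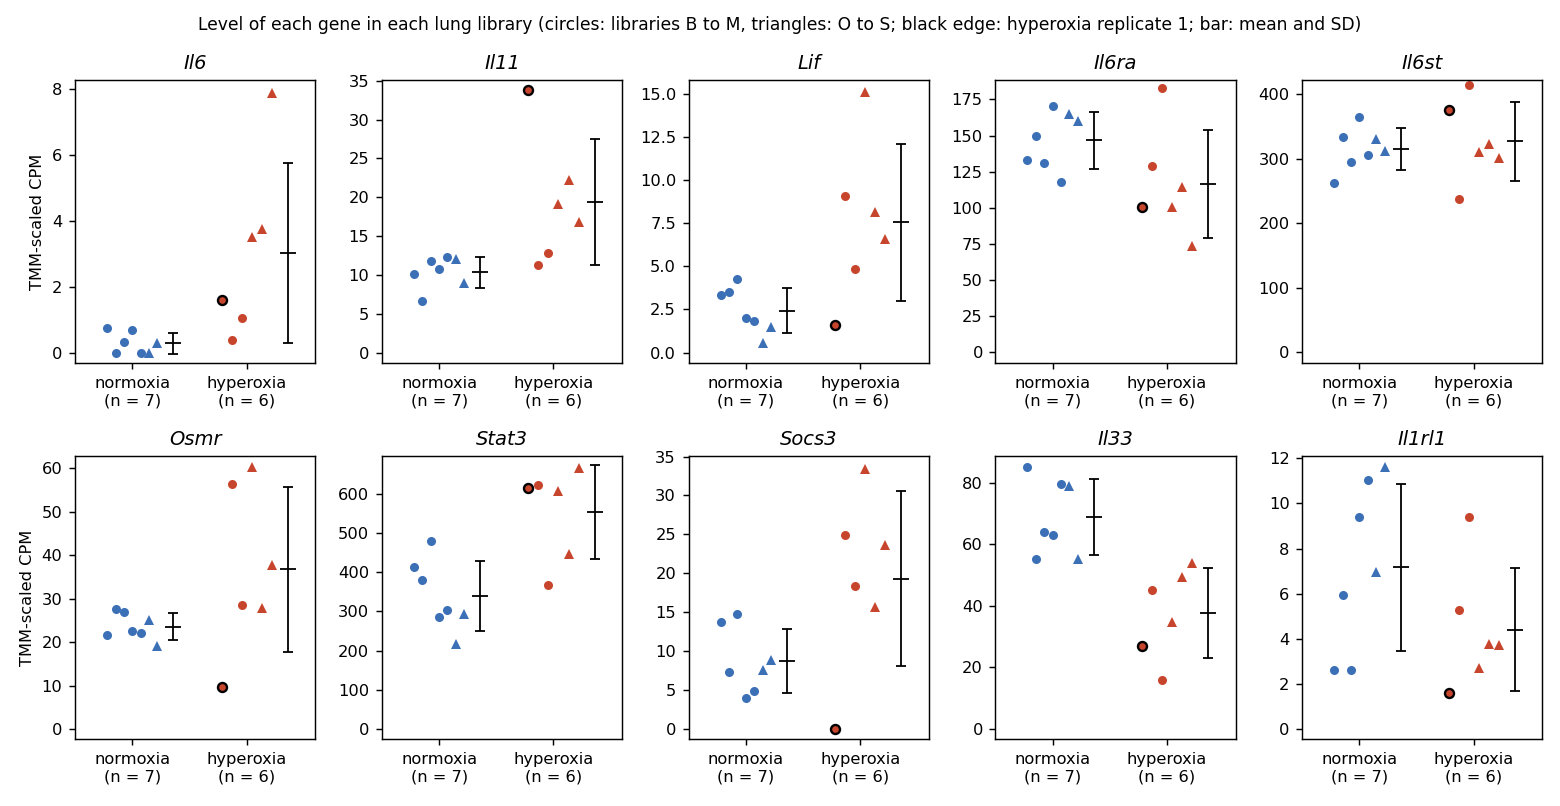
Each panel shows 1 gene in TMM-scaled CPM (vertical axis, linear, with 0 shown), with normoxic libraries in blue, hyperoxic libraries in red, circles for libraries B to M, triangles for O to S and a black edge for hyperoxia replicate 1, and bars give the mean and SD of each group. In the panel of Il33 all 6 hyperoxic libraries are below the 7 normoxic ones, and in those of Lif, Osmr and Socs3 the library with the black edge is the only hyperoxic one that is not above the normoxic range.

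Of the receptor subunits, none was called with all libraries. Il6st (gp130), the subunit that nearly all cytokines of the family need, is on the plus strand of chromosome 13 (112464070 to 112510086). It ranged from 262.8 to 365.0 CPM in normoxia (314.6 ± 32.4 CPM) and from 237.3 to 413.4 CPM in hyperoxia (326.8 ± 61.3 CPM), so that the groups overlapped widely. The log2 fold change of 0.05 (SE 0.14, edgeR adjusted p = 0.819) was within the spread of the libraries, and its sign turned, to between −0.035 and −0.020, with library size alone, with limma on the deposited values and with a filter of 10 counts in every library. It was 0.03 without hyperoxia replicate 1 (edgeR adjusted p = 0.899). Mean log2 CPM differed by 0.10 within B to M (0.014 without hyperoxia replicate 1) and by −0.041 within O to S.

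Il6ra encodes the subunit that binds IL-6 itself and limits which cells answer to it directly. The gene is on the minus strand of chromosome 3 (89864059 to 89913196), where an antisense gene that was not in the count table, Gm42809, overlaps it. Its lowest, median and highest levels were 118.2, 149.5 and 170.2 CPM in normoxia and 73.7, 107.3 and 183.1 CPM in hyperoxia. In hyperoxia 4 libraries were below every normoxic library, while hyperoxia replicate 3 was above all of them. The log2 fold change was −0.33 (SE 0.18, edgeR adjusted p = 0.212; two-sided exact permutation test, p = 0.0653). This call turned on hyperoxia replicate 3, without which the log2 fold change was −0.48 (edgeR adjusted p = 0.0415). Leaving out hyperoxia replicate 1 gave −0.27 (edgeR adjusted p = 0.302). The differences in mean log2 CPM were −0.064 within B to M, turning to 0.14 without hyperoxia replicate 1, and −0.78 within O to S.

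Osmr, the oncostatin M receptor subunit, is known from fibroblasts and epithelium and lies on the minus strand of chromosome 15 (6813577 to 6874969). Levels were 19.0 to 27.6 CPM in normoxia, with a median of 22.5 CPM, and 27.8, 28.5, 37.8, 56.3 and 60.3 CPM in hyperoxia replicates 5, 3, 6, 2 and 4. These 5 libraries were all above the normoxic range, whereas hyperoxia replicate 1, at 9.65 CPM, was below it. The log2 fold change over all libraries was 0.65 (SE 0.30, edgeR adjusted p = 0.13; two-sided exact permutation test, p = 0.253), and without hyperoxia replicate 1 it was 0.85 (SE 0.20, edgeR adjusted p = 0.00456). Within B to M the difference in mean log2 CPM was 0.063 with and 0.72 without that library, and within O to S it was 0.85.

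Stat3, the transcription factor on which these receptors converge, was called higher. It is on the minus strand of chromosome 11 (100885098 to 100939540). Its lowest, median and highest levels were 216.9, 303.9 and 480.4 CPM in normoxia and 366.5, 612.1 and 666.7 CPM in hyperoxia. Hyperoxia replicates 3 and 5 fell within the normoxic range and the other 4 were above it. Stat3 rose 1.64-fold, from 338.9 ± 89.7 CPM to 554.1 ± 119.3 CPM (log2 fold change 0.71, SE 0.19, edgeR adjusted p = 0.015). Without hyperoxia replicate 1 it was 0.69 (edgeR adjusted p = 0.0112), and the differences in mean log2 CPM were 0.51 within B to M (0.39 without that library) and 1.16 within O to S. Stat3 overlaps Stat5a on the opposite strand, and the counting was not stated to use strand. Stat5a itself was at 15.5 CPM in normoxia against 13.2 CPM (log2 fold change −0.23, edgeR adjusted p = 0.402). Counts of mRNA do not show phosphorylation, the step that activates STAT3.

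Socs3, the feedback inhibitor that STAT3 induces, is on the minus strand of chromosome 11 (117966079 to 117970047). It was at 4.04 to 14.7 CPM in normoxia, with a median of 7.53 CPM, and at 15.6, 18.4, 23.6, 24.9 and 33.4 CPM in hyperoxia replicates 5, 3, 6, 2 and 4. Again these 5 libraries were above the whole normoxic range, but hyperoxia replicate 1 held 0 counts, which allows up to 1.61 CPM. Over all libraries the log2 fold change was 1.15 (SE 0.51, edgeR adjusted p = 0.12; two-sided exact permutation test, p = 0.579). Without hyperoxia replicate 1 the mean in hyperoxia was 23.2 ± 6.84 CPM, against 8.75 ± 4.12 CPM in normoxia, and the log2 fold change was 1.40 (SE 0.29, edgeR adjusted p = 0.00179). Mean log2 CPM differed by −0.32 within B to M, which holds hyperoxia replicate 1, by 1.36 within B to M without it, and by 1.43 within O to S.

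**Figure D3:**
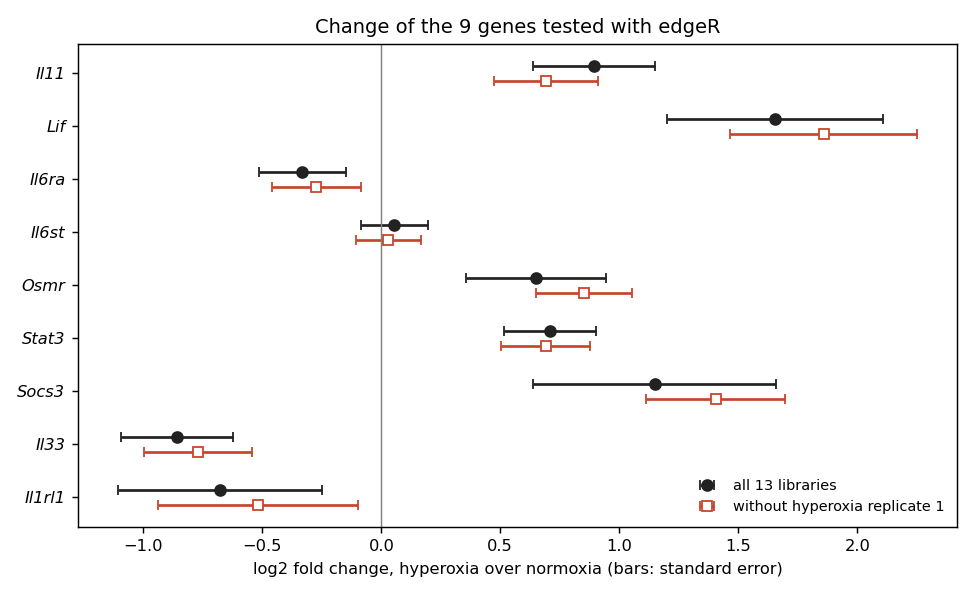
Points give the log2 fold change of each tested gene, hyperoxia over normoxia (horizontal axis), and bars 1 SE to each side, for all 13 libraries (black) and without hyperoxia replicate 1 (red). Leaving out that library narrows the bars of Osmr and Socs3, at 0.85 and 1.40, and leaves the direction of each of the 9 genes as it was.

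STAT dimers are known to bind the palindrome TTCNNNGAA, where N is any base and which reads the same on both strands. It was searched for in RefSeq promoter windows of GRCm38.p6, each from 250 bases before to 50 after a transcription start. All 10 genes matched, with 13 windows, and only the window of Socs3 held the motif, as 8.3% of all 32851 windows did. The motif lies 154 bases before the start of Socs3, in the 250 bases upstream of it on the minus strand (chr11:117969367-117969616), which are shown as the promoter of the STAT3 target among the 10 genes, with the motif in capitals.
Socs3: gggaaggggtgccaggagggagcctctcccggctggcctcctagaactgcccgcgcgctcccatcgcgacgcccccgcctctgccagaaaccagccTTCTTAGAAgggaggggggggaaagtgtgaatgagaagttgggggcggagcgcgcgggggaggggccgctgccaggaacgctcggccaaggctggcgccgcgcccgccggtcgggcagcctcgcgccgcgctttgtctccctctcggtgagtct

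Of 25 genes listed as induced by IL-6 and STAT3, 21 had a promoter window and 5 held the motif. Their sites are shown beside that of Socs3 because none of these genes was called higher. Itih4, of an acute-phase protein, fell in hyperoxia. Steap4, a metalloreductase gene, had 9.28 ± 3.31 CPM in normoxia against 7.95 ± 4.12 CPM (edgeR adjusted p = 0.786). Hamp, Fga and Fgb were too low for the edgeR filter, with at most 11 counts of Hamp and 3 counts of Fga and Fgb in a library. Hamp, the gene of the iron hormone hepcidin, had 42 counts over the 7 normoxic libraries, at 0.613 to 3.60 CPM, and 0 in all 6 hyperoxic libraries. Its normoxic mean of 1.97 CPM was at least 1.91-fold higher than the mean level that 3 counts per hyperoxic library would stand for, 1.03 CPM, and edgeR without a filter, run after seeing these values, called it lower in hyperoxia (adjusted p = 7.9e-04). The sites lie 51 (Itih4, chr14:30886405-30886453, plus strand), 116 (Steap4, chr5:7960336-7960384, plus strand), 97 (Hamp, chr7:30944098-30944146, minus strand), 234 (Fga, chr3:83025903-83025947, plus strand) and 162 bases (Fgb, chr3:83049997-83050045, minus strand) before the start. A match is a sequence and not a measured site of binding.
Itih4: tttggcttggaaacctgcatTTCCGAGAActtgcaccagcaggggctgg
Steap4: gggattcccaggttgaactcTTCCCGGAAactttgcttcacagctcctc
Hamp: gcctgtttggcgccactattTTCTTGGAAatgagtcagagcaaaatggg
Fga: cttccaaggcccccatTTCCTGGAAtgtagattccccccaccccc
Fgb: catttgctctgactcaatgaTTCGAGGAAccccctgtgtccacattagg

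Il33 was lower in every hyperoxic library than in any normoxic one. The gene lies on the plus strand of chromosome 19 (29925114 to 29960718). Its lowest, median and highest levels were 55.2, 64.1 and 85.1 CPM in normoxia and 16.0, 39.9 and 54.0 CPM in hyperoxia. The gap between the groups was narrow, from 54.0 to 55.2 CPM, and 5.23% of all genes tested were likewise lower with no overlap. The mean fell by 44.9% after scaling in the fit, from 68.7 ± 12.3 CPM to 37.7 ± 14.5 CPM (log2 fold change −0.86, SE 0.24, edgeR adjusted p = 0.0156; two-sided exact permutation test, p = 0.000583, the smallest possible). The log2 fold change without hyperoxia replicate 1 was −0.77 (edgeR adjusted p = 0.0175). It was lower within both letter sets, with differences in mean log2 CPM of −1.33 in B to M, with and without hyperoxia replicate 1, and −0.54 in O to S.

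Markers of alveolar type 2 cells, the main known source of IL-33 in mouse lung, fell over the same libraries. Of 10 such markers, all tested, 7 were lower and 0 higher with edgeR, 9 were lower and 0 higher at an unadjusted p under 0.05, and DESeq2 called 8 lower and 0 higher. Their summed level was 12980 to 24100 CPM in normoxia and 3446 to 7548 CPM in hyperoxia. None was at 0 in a whole group. Sftpc, the surfactant protein C gene that defines these cells, went from 9637 to 1465 CPM (log2 fold change −2.72, edgeR adjusted p = 0.00418) and Lamp3, of the lamellar body, from 304.2 to 91.5 CPM (−1.73, edgeR adjusted p = 2.0e-07). Without hyperoxia replicate 1 the log2 fold change of Sftpc was −2.45 (edgeR adjusted p = 2.4e-05). In bulk tissue fewer cells of a type and less RNA per cell cannot be told apart, and the part of these cells in the change of Il33 was not tested. Fibroblast markers, of another source of IL-33, went both ways, with Pdgfra (log2 fold change 1.19, edgeR adjusted p = 1.1e-04) and Col3a1 (0.57, edgeR adjusted p = 0.0215) higher and Inmt (−1.97, edgeR adjusted p = 0.0279) lower among 8 tested of 10. Inmt was no longer called without normoxia replicate 1 (−1.82), hyperoxia replicate 3 (−1.80) or hyperoxia replicate 5 (−1.94), or in edgeR with a term for the letter set (−1.89, adjusted p = 0.0563). The summed level of the fibroblast list was 2725 to 4001 CPM in normoxia and 3212 to 3916 CPM in hyperoxia, with 0 of its genes at 0 in a whole group.

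Il1rl1, whose transcripts encode both the membrane receptor ST2 and a soluble form that takes up IL-33, is on the plus strand of chromosome 1 (40429570 to 40465415). The annotation gives 5 protein-coding transcripts with 5 different 3′ ends, and the count pools them, so the soluble and membrane forms were not separated. Levels were low, with 142 counts over the 7 normoxic and 83 over the 6 hyperoxic libraries. The lowest, median and highest levels were 2.61, 6.97 and 11.6 CPM in normoxia and 1.61, 3.73 and 9.38 CPM in hyperoxia, with wide overlap. The log2 fold change of −0.68 (SE 0.43, edgeR adjusted p = 0.285; two-sided exact permutation test, p = 0.181) did not pass the threshold. Leaving out hyperoxia replicate 1 gave −0.52 (edgeR adjusted p = 0.383). The differences in mean log2 CPM were −0.24 within B to M, turning to 0.34 without hyperoxia replicate 1, and −1.27 within O to S.

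Markers of cells that carry ST2 were counted in the same libraries, and some of them fell. Of 9 mast cell markers only Hdc, the histidine decarboxylase gene, could be tested, and it fell from 34.7 ± 6.45 to 10.9 ± 7.02 CPM (log2 fold change −1.63, edgeR adjusted p = 0.00662). The proteases Cpa3 and Mcpt4 had at most 7 counts in a library, and Tpsab1 was at 0 in all 13 libraries. The summed level of the list was 29.9 to 43.8 CPM in normoxia and 1.07 to 19.7 CPM in hyperoxia. Hdc alone was at 26.8 to 41.2 CPM in normoxia and 0.536 to 18.6 CPM in hyperoxia. Of 10 markers of group 2 innate lymphoid and regulatory T cells 7 were tested, and Icos, a costimulatory receptor, fell (−1.48, edgeR adjusted p = 0.017). Il7r and Ikzf2 were also called lower (−0.67 and −0.63, edgeR adjusted p = 0.0431 and 0.0385), but each lost the call in 10 of the 13 fits that left out 1 library, where Il7r ran from −0.70 to −0.54 and Ikzf2 from −0.62 to −0.48. Il7r kept it only without normoxia replicate 5 or hyperoxia replicates 1 or 3, and Ikzf2 only without normoxia replicate 2 or hyperoxia replicates 1 or 3, and the list held 5 lower genes without hyperoxia replicate 3. Both also lost it in edgeR with a term for the letter set (adjusted p = 0.0512 for Il7r and 0.0547 for Ikzf2), when 1 gene of the list was lower. The lineage factors Gata3 (−0.40, edgeR adjusted p = 0.23) and Foxp3 (0.43, edgeR adjusted p = 0.236) did not pass with all libraries, and Gata3 was called lower without hyperoxia replicate 3 (−0.60, edgeR adjusted p = 0.0467). The summed level of this list was 305.1 to 433.6 CPM in normoxia and 252.0 to 437.4 CPM in hyperoxia, with 0 genes at 0 in a whole group. Of 8 T cell markers 3 were tested, and Cd3d of the T cell receptor complex (−1.14, edgeR adjusted p = 0.00544) and Cd8a (−1.69, edgeR adjusted p = 0.007) fell, with summed levels of 31.3 to 56.4 CPM in normoxia and 12.2 to 23.6 CPM in hyperoxia and 0 genes at 0 in a whole group. The part of these cells in the level of Il1rl1 was not tested.

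The wider pathway was followed with 8 lists of 109 genes, of which 76 were tested, 14 were higher, 10 lower and 52 not called. The shares of all genes tested were 11.8% higher and 10.8% lower.

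**Figure D4:**
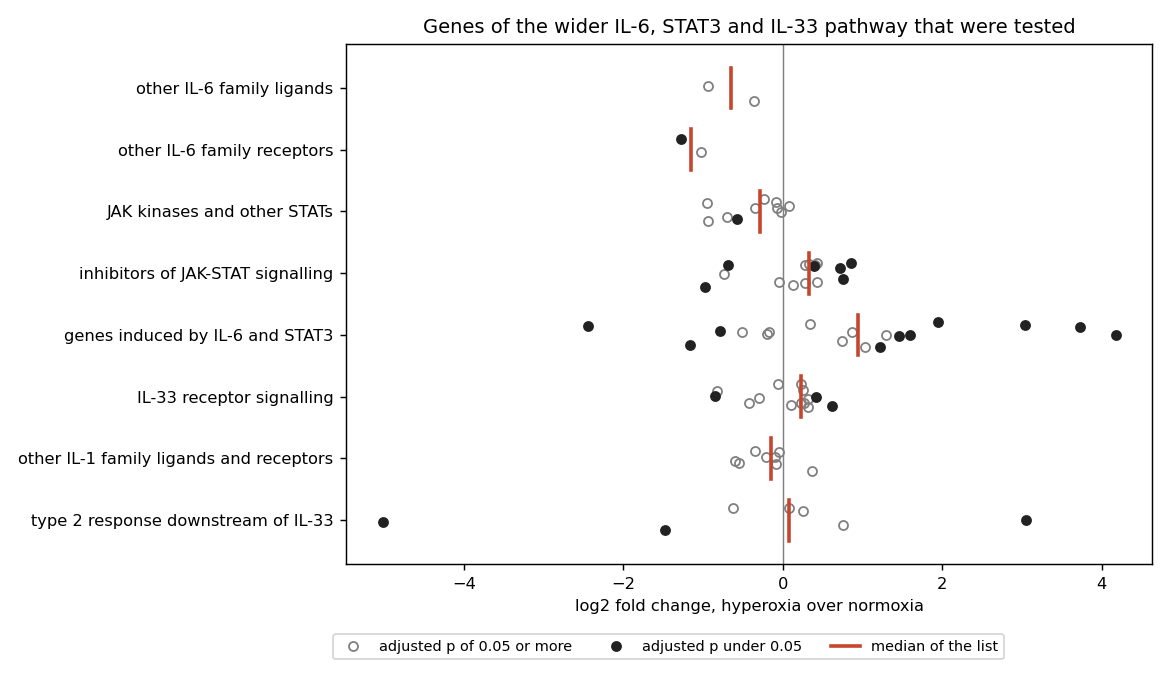
Each circle is 1 tested gene of the 8 lists (rows), placed by its log2 fold change, hyperoxia over normoxia (horizontal axis), filled where the edgeR adjusted p is under 0.05, and red lines give the median of each list. The genes induced by IL-6 and STAT3 reach furthest to the right, with filled circles on both sides of 0 and a median of 0.95, and the JAK kinases and other STATs lie below 0 with 1 exception, Jak2.

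The receptor subunit for LIF moved opposite to its ligand. Lifr, which pairs with gp130 for LIF and related cytokines, was at 105.4 to 158.3 CPM in normoxia and 44.6 to 87.9 CPM in hyperoxia, with no overlap. It fell from 138.3 ± 18.8 to 57.5 ± 15.6 CPM (log2 fold change −1.27, SE 0.17, edgeR adjusted p = 6.8e-05). Il11ra1, the receptor of IL-11, was at 32.2 ± 8.77 CPM in normoxia against 15.5 ± 10.2 CPM (log2 fold change −1.02, edgeR adjusted p = 0.0798). With edgeR Il11ra1 was not called with all libraries but was called without hyperoxia replicate 1 (−0.80, edgeR adjusted p = 0.0476), and with all libraries DESeq2 (−1.03, adjusted p = 0.0372) and limma on the deposited values (−1.41, adjusted p = 0.0427) called it lower. Of 5 other receptor subunits 2 were tested, and edgeR called 1 and DESeq2 called 2 lower. Osm, which encodes the ligand of Osmr, had at most 5 counts in a normoxic and 10 in a hyperoxic library and was not tested.

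Among the kinases and other STATs, Jak1 and Jak2, the kinases that gp130 uses most, had log2 fold changes of −0.07 and 0.07 (edgeR adjusted p = 0.742 and 0.769). For Jak1 the sign turned, to 0.011, without hyperoxia replicate 2. Stat5b, a transcription factor of growth hormone and IL-2 signalling, was at −0.94 and not called by edgeR with all libraries (edgeR adjusted p = 0.0618). It was called lower by DESeq2 (adjusted p = 0.0277), by limma on the deposited values (−1.17, adjusted p = 0.0403), with 10 counts in every library (−0.98, edgeR adjusted p = 0.0483) and without hyperoxia replicate 1 (−0.73) or 2 (−1.10).

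Inhibitors of JAK-STAT signalling other than Socs3 included 4 called higher and 2 called lower of 15 tested, and the median of the list on the log2 fold scale was 0.32. The phosphatase genes Ptpn11 and Ptpn2 did not overlap between the groups. Ptpn11, whose product SHP2 binds gp130 at the same site as SOCS3, rose from 103.2 ± 14.6 to 174.8 ± 35.0 CPM (log2 fold change 0.76, edgeR adjusted p = 0.00157), and Ptpn2, which acts on nuclear STATs and JAK1, from 27.6 ± 5.56 to 50.3 ± 9.80 CPM (0.86, edgeR adjusted p = 0.00186). Socs5 (0.72, edgeR adjusted p = 0.00971) and Socs2 (0.39, edgeR adjusted p = 0.0392), relatives of Socs3, were higher too, but Socs2 lost the call without any 1 of the normoxic libraries or hyperoxia replicates 2 or 3, where it ran from 0.39 to 0.44. Ptprc, the CD45 phosphatase gene of all white blood cells (−0.98, edgeR adjusted p = 0.00691), and Pias1 (−0.69, edgeR adjusted p = 0.0177), of a SUMO ligase, were lower.

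Genes listed as induced by IL-6 and STAT3 went both ways. Of 18 tested, 7 were called higher and 3 lower, against 11.8% and 10.8% of all genes. Without hyperoxia replicate 1 these became 11 and 3 of 18, against 15.2% and 13.3% of all genes, and with 10 counts in every library 4 and 3 of the 9 genes left, against 14.1% and 13.6%. The median log2 fold change was 0.95 with all libraries, 0.49 with limma on the deposited values and 0.27 with that filter. The 4 with the smallest adjusted p among the higher genes were Mt2, Timp1, Serpina3n and Il4ra. Mt2, of a metal-binding metallothionein, rose from 47.5 ± 24.2 to 857.8 ± 558.6 CPM (log2 fold change 4.18, edgeR adjusted p = 2.8e-04), Timp1, an inhibitor of matrix proteases, from 3.47 ± 3.10 to 42.2 ± 27.4 CPM (3.73, edgeR adjusted p = 3.4e-04), and Serpina3n, an acute-phase protease inhibitor, from 11.2 ± 5.72 to 90.6 ± 54.0 CPM (3.04, edgeR adjusted p = 0.0012). In each of these 3 genes 5 hyperoxic libraries were above the whole normoxic range. Hyperoxia replicate 1, with 23.6 CPM of Mt2, was within it. Il4ra, a receptor subunit for IL-4 and IL-13, had no overlap, with 94.2 to 182.0 CPM in normoxia and 193.2 to 583.3 CPM in hyperoxia (1.22, edgeR adjusted p = 0.00151).

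Saa3 (log2 fold change 1.95, edgeR adjusted p = 0.0018), Lcn2 (1.59, edgeR adjusted p = 0.0126) and Cebpd (1.46, edgeR adjusted p = 0.00238), an acute-phase protein, an iron-sequestering protein and a transcription factor of the acute phase, completed the 7 higher genes. The 3 lower genes are acute-phase genes as well. Itih4 fell from 42.3 ± 5.44 to 7.82 ± 1.65 CPM (−2.44, edgeR adjusted p = 2.2e-07) and Hp, the haptoglobin gene, from 140.8 ± 27.4 to 63.1 ± 21.0 CPM (−1.16, edgeR adjusted p = 7.2e-04), both with no overlap. Lbp, of the lipopolysaccharide-binding protein, went from 67.9 ± 10.1 to 39.5 ± 10.8 CPM (−0.79, edgeR adjusted p = 0.00373). The immediate STAT3 targets Junb (1.03, edgeR adjusted p = 0.115), Bcl3 (0.87, edgeR adjusted p = 0.268) and Pim1 (0.34, edgeR adjusted p = 0.128) were not called with all libraries. Each was called without hyperoxia replicate 1, as Socs3 was, with log2 fold changes of 1.28 (edgeR adjusted p = 0.00527), 1.12 (edgeR adjusted p = 0.0405) and 0.41 (edgeR adjusted p = 0.0465). The liver acute-phase genes Saa1, Saa2, Fga, Fgb, Fgg, Orm1 and Hamp had at most 15 counts in a library and did not pass the edgeR filter. Without a filter Hamp was called lower (edgeR adjusted p = 7.9e-04).

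Downstream of the IL-33 receptor, all 14 genes listed were tested, and 2 were higher and 1 lower, with a median log2 fold change of 0.23. The adaptor Myd88 (0.32, edgeR adjusted p = 0.545) and the co-receptor Il1rap (−0.30, edgeR adjusted p = 0.566) did not pass. Nfkb1, which encodes the p50 subunit of NF-κB, had no overlap and fell from 78.4 ± 10.5 to 43.1 ± 15.3 CPM (−0.85, edgeR adjusted p = 0.00706). Nfkbia, of the inhibitor that NF-κB induces, rose from 427.9 ± 69.0 to 655.0 ± 195.1 CPM (0.61, edgeR adjusted p = 0.022). Tab2, of the TAK1 complex, was at 0.42 (edgeR adjusted p = 0.0342) and lost the call without normoxia replicates 1, 2, 3 or 7 or hyperoxia replicates 3, 4 or 6, where the log2 fold change ran from 0.40 to 0.45. Of 14 other IL-1 family ligands and receptors 8 were tested and 0 were called with edgeR, 0 had an unadjusted p under 0.05, and 0 were called with DESeq2 or limma-voom. Without hyperoxia replicate 2 Il1r1 was called higher (0.57, against 0.37 with all libraries), and 1 gene, Il18bp, was called lower without hyperoxia replicate 1 (−0.71, against −0.34). The median of those 8 was −0.15, and Il1b was at −0.60 (edgeR adjusted p = 0.4).

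Of 17 genes of the type 2 response that IL-33 is known to start, 7 were tested, 1 was higher and 2 were lower. Areg, the growth factor amphiregulin, which group 2 innate lymphoid and regulatory T cells release under IL-33 but which epithelium makes too, was at 4.19 to 14.5 CPM in normoxia and 32.7 to 126.5 CPM in hyperoxia. It rose with no overlap, from 8.21 ± 3.64 to 68.1 ± 31.8 CPM (log2 fold change 3.06, edgeR adjusted p = 1.0e-05), opposite in direction to Il33. The classical type 2 cytokines Il4, Il5, Il9 and Il13 and the epithelial cytokine Il25 had at most 5 counts in a library, so that no change in them was detectable at this depth. The lower genes were the chemokine Ccl22 (−1.48, edgeR adjusted p = 0.0199), which lost the call without normoxia replicate 2 (−1.19) or 3 (−1.24), and the goblet cell gene Clca1 (−5.02, edgeR adjusted p = 0.0352). Clca1 reached 856.6 CPM in 1 normoxic library and was at −3.17 and not called without normoxia replicate 3, and was not called without normoxia replicate 6 or hyperoxia replicates 2, 3, 4 or 6 either. With limma-voom neither Ccl22 (adjusted p = 0.0553) nor Clca1 (adjusted p = 0.408) was called. Chil3, a macrophage gene of the same response, was at 0.76 (edgeR adjusted p = 0.235) and was called without hyperoxia replicate 1 (1.02, edgeR adjusted p = 5.2e-04).

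The remaining marker lists cover other cells that make or answer these cytokines. Of 9 neutrophil markers 5 were tested and 0 called with edgeR, with 1 lower at an unadjusted p under 0.05 and 1 lower with DESeq2 and with limma-voom (2 lower in edgeR without hyperoxia replicate 4, 1 without hyperoxia replicate 1 or normoxia replicate 6), and their summed level was 105.6 to 207.6 CPM in normoxia and 48.3 to 250.1 CPM in hyperoxia. Of 9 monocyte and macrophage markers, all tested, 1 was higher, Mrc1 of resident macrophages (log2 fold change 0.72, edgeR adjusted p = 0.00415), and 3 were lower (1 without normoxia replicate 1), among them Ccr2 of inflammatory monocytes (−0.85, edgeR adjusted p = 0.00806), with summed levels of 348.0 to 446.7 CPM and 324.3 to 548.5 CPM. Csf1r was at −0.31 with all libraries (edgeR adjusted p = 0.459) and called lower when hyperoxia replicate 1 was left out (−0.75, edgeR adjusted p = 2.9e-04). Of 8 endothelial markers, all tested, Egfl7 (1.37, edgeR adjusted p = 0.00715) was higher and Tek (−0.94, edgeR adjusted p = 5.7e-04), Tie1 (−0.70, edgeR adjusted p = 0.00572) and Erg (−0.77, edgeR adjusted p = 0.00987) were lower. Without hyperoxia replicate 1 Egfl7 was at 0.84 (edgeR adjusted p = 0.00153), and Cldn5 (0.71, edgeR adjusted p = 0.0408) was also called higher and Kdr (−0.37, edgeR adjusted p = 0.0402) lower. This list had summed levels of 3202 to 5492 CPM and 2441 to 5898 CPM. Of 6 mesothelial markers 4 were tested and 1, Lrrn4 (−1.28, edgeR adjusted p = 0.00315), was lower, joined without hyperoxia replicate 1 by Upk3b (−0.95, edgeR adjusted p = 0.0121), with Krt19 then higher (edgeR adjusted p = 2.6e-04), and with summed levels of 138.5 to 274.8 CPM and 130.8 to 388.8 CPM. No gene of these 4 lists was at 0 in a whole group, and their part in the levels of Il6, Il11, Lif and the receptors was not tested.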

How the data were processed

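The authors ran kallisto within BioJupies on the Quant-seq 3′ reads. They deposited unfiltered whole-number counts per gene symbol for 13 libraries and the log10 of CPM plus 1. The submitters' processing notes name mm10 and limma 3.54.2. The annotation and the strand setting were not given in the sources used here. Conditions came from the sample titles, and 0 columns were left unmapped. The labels do not say that each sample is a different mouse, so p-values measure the spread between these samples. The counts carry no molecular identifiers, so floors cover counting error only.

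The counts were tested with edgeR 4.0.16 (glmQLFit, glmQLFTest; R 4.3.3) on all 13 libraries with no covariate, after TMM scaling and filterByExpr. The SE of a change is its size over the root of its F statistic. Single values were compared by two-sided exact permutation of mean log2 CPM (prior count 2). Libraries of one group differed beyond sampling noise in all 36 pairs (chi-square per gene at least 3.9). The code was tested on simulated data.

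The 10 genes, the gene lists and the tests were chosen with earlier results of these data known. Named are the 10 genes, from each list up to 4 called genes per direction with the smallest adjusted p, the 3 genes most like each called gene, and further list genes chosen after their values were seen. Alternatives were DESeq2 1.42.0, limma-voom (limma 3.58.1), limma run on the deposited log10 values in log2 units, scaling by library size alone, a filter of 10 counts per library or none, a replicate block, a term for the letter set, and the omission of each library in turn. The interaction with the letter set, edgeR without a filter for Il6 and Hamp, the ratios and the B to M values without hyperoxia replicate 1 were added after seeing the data. Gene positions are from GENCODE for GRCm38, promoters from RefSeq for GRCm38.p6. Of the listed genes, 2 are not reported here by name.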

Additional observations from a re-analysis of the deposited data

Results flagged for a closer look

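The values of each group were screened with Dixon's test for a library far from the others of its group, over 78 groups of values (the 10 genes in CPM and in log2 CPM, the mean log2 CPM of the 17 lists, the total counts and the mean correlations). The test gave 6 such values where chance gives about 1 in 20 groups, 3.9 here, and 5 of the 6 were in hyperoxia replicate 1. Given as the gap to the nearest library over the range of the group, where 0.625 is the limit for 6 libraries, hyperoxia replicate 1 was lowest in the log2 CPM of Socs3 (0.813), in the genes induced by IL-6 and STAT3 (0.815), in IL-33 receptor signalling (0.748), in the type 2 response downstream of IL-33 (0.669) and in its mean correlation to all others (0.763). The remaining value was the total count of normoxia replicate 5, the lowest of the normoxic libraries (0.612, where the limit for 7 libraries is 0.568). In CPM none of the 10 genes passed the limit in either group, and in log2 CPM, a scale added after seeing the data, only Socs3 in hyperoxia did.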

How the results depend on the processing

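The labels do not say whether the replicate numbers pair the libraries. The deviations of same-numbered libraries correlated between −0.325 and 0.272, which cannot exclude a pairing. With the number as a block, edgeR called 718 genes higher and 626 lower (1473 and 1346 without it), 0 of the 10 genes higher (3 at an unadjusted p under 0.05) and 1 lower, 8 genes of the pathway lists higher, and 2 genes of the marker lists higher and 11 lower. Il11 was then at 0.80 (adjusted p = 0.088), Lif at 1.49 (adjusted p = 0.137) and Stat3 at 0.70 (adjusted p = 0.106).

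Il6st reversed to −0.035 with limma on the deposited values, −0.029 with library size alone and −0.020 with 10 counts in every library. Jak1 ran from −0.093 to 0.011 over the fits without 1 library and reversed, to 0.011, without hyperoxia replicate 2. Limma on the deposited values lowered the median of all genes by 0.13, and higher genes made up 38.8% of its calls and 42.8% with library size alone, against 52.3%. With the letter set as a term the marker lists held 17 lower genes against 21, and with library size alone Socs2 (adjusted p = 0.0778) and Tab2 (adjusted p = 0.0733) were not called.

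Over the 13 fits without 1 library, 1256 to 1934 genes were higher and 1049 to 1699 lower. Of the 10 genes 3 to 5 were higher (5 without hyperoxia replicate 1) and 1 to 2 lower (2 without hyperoxia replicate 3). Pathway lists held 12 to 21 higher and 7 to 13 lower genes and marker lists 4 to 6 and 16 to 26. The log2 fold change was 0.69 to 1.04 for Il11, 1.35 to 1.87 for Lif, −0.48 to −0.21 for Il6ra, 0.0054 to 0.17 for Il6st, 0.46 to 0.85 for Osmr, 0.64 to 0.84 for Stat3, 0.93 to 1.40 for Socs3, −0.98 to −0.68 for Il33 and −1.01 to −0.50 for Il1rl1, and the difference for Il6 was 1.37 to 1.98. Il11, Lif, Stat3 and Il33 kept their call in each of these 13 fits. The cause of the changes was not tested. Depth limits Il6, Lif and Il1rl1 most, as few counts stand behind them.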

Other observations

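Ligand, receptor and partner were also compared within each library, where the scaling between libraries cancels, as log2 ratios of counts with 0.5 added. These ratios were chosen after seeing the data, so their p-values, adjusted over these 3 ratios alone, do not cover that choice. They compare a pair of genes between conditions without giving their relative number of molecules. The ratio of Osmr to Lifr, the subunits that pair with gp130 for oncostatin M and for LIF, was −2.54 ± 0.21 (SD, n = 7) in normoxia and −0.82 ± 1.26 (SD, n = 6) in hyperoxia (two-sided exact permutation test, p = 0.00816, adjusted over 3 ratios 0.0122). It was higher than in any normoxic library in 5 of 6 hyperoxic libraries and lower in hyperoxia replicate 1, without which the difference was 2.19 (exact permutation test, p = 0.00126, the smallest possible). The ratio of Lif to Lifr went from −5.92 ± 0.96 to −3.12 ± 1.31, higher in 5 of 6 hyperoxic libraries (exact permutation test, p = 0.00233, adjusted 0.00699), with a difference of 2.80 with all libraries and 3.29 without hyperoxia replicate 1. The ratio of Il6ra to Il6st went from −1.10 ± 0.14 to −1.52 ± 0.44, lower in 4 of 6 hyperoxic libraries and higher in 1 (exact permutation test, p = 0.0361, adjusted 0.0361), a difference of −0.42 that was −0.34 without hyperoxia replicate 1 (exact permutation test, p = 0.0783).

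For each called gene the genes whose log2 CPM followed it most closely over the 13 libraries were listed, after the mean of each condition was taken away, as a description with no test. The genes of 1 library share its depth and preparation. Nearest to Il11 were Cdca2, Slc30a9 and Trpm4 (r = 0.923, 0.909 and 0.89), nearest to Lif were Cirbp, Slc29a1 and Sh3bgrl3 (r = 0.946, 0.944 and 0.943), nearest to Stat3 were Tcirg1, Eif4b and Cant1 (r = 0.962, 0.941 and 0.932), and nearest to Il33 were Ldah, Rars and Fam50a (r = 0.889, 0.883 and 0.868). Without hyperoxia replicate 1, r was 0.858, 0.835 and 0.797 for the genes named for Il11 and 0.921, 0.902 and 0.9 for those of Lif. It was then 0.961, 0.948 and 0.932 for those of Stat3 and 0.889, 0.886 and 0.858 for those of Il33. Of these 12 genes only Rars, which rose while Il33 fell, was called between the conditions (log2 fold change 0.85, edgeR adjusted p = 0.00615).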
